A study of Mus musculus with 3 samples.

Results

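A set of 31 genes of glycolysis and the hypoxia response was followed in prostate tumors of TRAMP mice with and without the histone demethylase gene Phf8. The genes encode glycolytic enzymes, glucose and lactate transporters, components of the hypoxia-inducible factor (HIF) pathway and targets of HIF. They were taken by name, with earlier results of these data known, and all 31 of 31 were found among the 46095 gene rows of the count table. Shares over all tested genes are therefore set beside theirs as a description only. The study made 3 libraries: Phf8-KO1 and Phf8-KO2, from TRAMP mice labeled as PHF8 knockouts, and TRAMP, from control TRAMP mice labeled as PHF8 wild-type. All mice were 37 weeks old. All carry the TRAMP transgene, in which the rat probasin promoter drives a viral SV40 oncoprotein in prostate epithelium, so the control mice have tumors too. The knockout males came from a cross of Phf8 knockout females with TRAMP males. Each library is tumor RNA mixed in equal mass from 3 mice, so variation between mice within a pool cannot be seen. The sources used here do not say whether the Phf8-KO pools held different mice, so p-values reflect the spread of these libraries and nothing wider.

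Depth was 26747443 counts in Phf8-KO1, 31876182 in Phf8-KO2 and 29954020 in TRAMP, and levels are given as CPM, the counts per 1000000 counts of a library size that edgeR's TMM method had corrected. Phf8 itself had 15.0 CPM in Phf8-KO1, 15.9 in Phf8-KO2 and 19.4 in TRAMP. The sources used here do not say which part of Phf8 is missing from the knockout allele, so this gene-wide count is no check of genotype. The labeled tissue was checked with markers of prostate epithelium: the secretory gene Pbsn had 109.5, 134.1 and 175.4 CPM in Phf8-KO1, Phf8-KO2 and TRAMP, and the homeobox gene Hoxb13 had 173.8, 228.8 and 150.9 CPM. The pools differed in other tissues. Skeletal muscle markers (14 genes) summed to 114.2 CPM in Phf8-KO1, 36.6 in Phf8-KO2 and 2266 in TRAMP, and smooth muscle markers (10 genes) to 5543, 450.8 and 733.7 CPM in the same order of pools. In bulk tissue, fewer cells of a type and less RNA per cell cannot be told apart. Counts of Phf8-KO1 and Phf8-KO2 lay further apart than counting error allows (chi-square per degree of freedom 96.9 over all genes), and each pool is given on its own.

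Glycolysis splits glucose into pyruvate in the cytosol, and lactate dehydrogenase turns pyruvate into lactate, which leaves the cell through monocarboxylate transporters. HIF is a transcription factor made of an oxygen-regulated alpha subunit and a constant partner, ARNT. When oxygen is present, prolyl hydroxylases mark the alpha subunit for destruction through the VHL protein. When oxygen is scarce the alpha subunit persists, and HIF binds DNA at the hypoxia response element, whose core reads ACGTG or GCGTG, and turns on genes of glucose uptake, glycolysis, blood vessel growth and mitochondrial clearance. HIF activity is set mostly at the level of the protein, so the mRNA of the alpha subunits need not follow it. Many tumors use glycolysis heavily even when oxygen is present. Prostate epithelium is unusual in secreting citrate, and in the prostate a strongly glycolytic state is best known from advanced tumors.

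Promoters are shown first, because HIF reaches its targets through this core. Genes are known as HIF targets largely through such sites, so the share of members that hold a core is not independent of how they were chosen and is given as a description. The windows come from RefSeq on GRCm38.p6 and run from 250 bases before to 50 bases after each annotated start. Windows were found for 29 of the 31 genes, not for Epas1 and Ndrg1. The search covered ACGTG and GCGTG on both strands, so that CACGT and CACGC count too, and ACGTG and CACGT overlap in the palindrome CACGTG. A core was found for 26 of the 29 genes (89.7%), against 46.7% of 27025 genes with a window. Counted by window it was 31 of 39 (79.5%), against 43.8% of 32851. The members' windows are richer in G and C, with a median of 64.7% against 52.7% for all genes. Among 8341 windows of all genes with 56.8% to 68.0% G and C, the middle range of the members, 63.5% held a core. Gpi1, Tpi1 and Eno2 held none in their windows. A match is a description of these letters and does not show that HIF binds there.

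The 250 bases before the start are printed for 6 genes, 5′ to 3′ on the gene's strand, with each core in capitals. The first pair were 9.32-fold and 4.23-fold higher in Phf8-KO2 than in Phf8-KO1. Egln3 encodes a HIF prolyl hydroxylase (chr12:54203875-54204124, minus strand), and Bnip3 a mitophagy receptor (chr7:138909507-138909756, minus strand). Egln3 has 1 core, 229 bases before the start, while Bnip3 has 5 matches, of which CACGT and ACGTG overlap.
Egln3: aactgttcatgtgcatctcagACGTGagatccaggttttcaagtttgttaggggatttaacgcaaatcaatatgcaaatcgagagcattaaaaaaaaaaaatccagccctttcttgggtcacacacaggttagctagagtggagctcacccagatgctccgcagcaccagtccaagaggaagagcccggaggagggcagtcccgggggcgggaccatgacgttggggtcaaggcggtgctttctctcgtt
Bnip3: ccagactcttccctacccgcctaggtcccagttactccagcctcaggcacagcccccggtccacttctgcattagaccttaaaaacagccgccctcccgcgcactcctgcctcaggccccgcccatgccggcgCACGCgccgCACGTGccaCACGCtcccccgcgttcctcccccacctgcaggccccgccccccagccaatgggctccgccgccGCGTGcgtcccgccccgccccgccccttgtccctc
Slc2a1, the glucose transporter GLUT1 (chr4:119108495-119108744, plus strand), and Ddit4, an inhibitor of mTORC1 signaling (chr10:59951771-59952020, minus strand), lay above TRAMP in both Phf8-KO pools. Each holds 2 cores.
Slc2a1: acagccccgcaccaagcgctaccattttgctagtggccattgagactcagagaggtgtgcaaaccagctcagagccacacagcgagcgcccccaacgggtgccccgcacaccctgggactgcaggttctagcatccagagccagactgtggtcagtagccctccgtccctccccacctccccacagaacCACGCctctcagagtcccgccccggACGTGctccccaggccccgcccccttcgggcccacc
Ddit4: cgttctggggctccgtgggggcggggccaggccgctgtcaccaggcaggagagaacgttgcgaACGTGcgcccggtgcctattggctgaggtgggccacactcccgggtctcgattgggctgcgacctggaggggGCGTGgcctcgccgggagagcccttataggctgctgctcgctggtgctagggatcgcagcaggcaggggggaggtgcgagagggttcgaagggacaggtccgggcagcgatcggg
Pgk1, the phosphoglycerate kinase of lower glycolysis (chrX:106186850-106187099, plus strand), and P4ha2, a collagen prolyl 4-hydroxylase subunit (chr11:54100674-54100923, plus strand), stand for an enzyme of the pathway and for a gene whose Phf8-KO pools lay close together. Pgk1 holds 2 cores and P4ha2 holds 3.
Pgk1: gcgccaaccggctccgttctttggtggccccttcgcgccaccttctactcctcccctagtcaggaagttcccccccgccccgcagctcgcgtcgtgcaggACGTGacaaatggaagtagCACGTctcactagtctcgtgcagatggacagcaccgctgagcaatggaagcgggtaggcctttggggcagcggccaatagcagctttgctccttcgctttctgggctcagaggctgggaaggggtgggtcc
P4ha2: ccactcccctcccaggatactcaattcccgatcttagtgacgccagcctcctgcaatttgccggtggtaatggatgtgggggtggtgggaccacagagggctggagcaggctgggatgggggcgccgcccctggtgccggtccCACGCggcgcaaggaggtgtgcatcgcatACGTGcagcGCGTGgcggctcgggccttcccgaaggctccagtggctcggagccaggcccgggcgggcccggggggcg

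Across the 31 genes, the Phf8-KO2 pool stood well above TRAMP while the Phf8-KO1 pool lay nearer to it. The median log2 ratio to TRAMP was 0.32 for Phf8-KO1 and 1.29 for Phf8-KO2, where all 18216 tested genes had medians of -0.0074 and -0.043. In Phf8-KO2 19 of 31 genes were more than 2-fold above TRAMP (17.1% of all tested genes were), and in Phf8-KO1 3 were, Hk1, Epas1 and P4ha2 (16.8% of all). The genes took 0.394% of the counts in Phf8-KO1, 0.777% in Phf8-KO2 and 0.354% in TRAMP. Both Phf8-KO pools lay above TRAMP for 20 of 31 genes (40.8% of all tested genes), and both below it for 2 of 31, Gapdh and Hif1a (42.8% of all), or 1 with library size alone and 3 with upper quartile scaling.

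**Figure D1:**
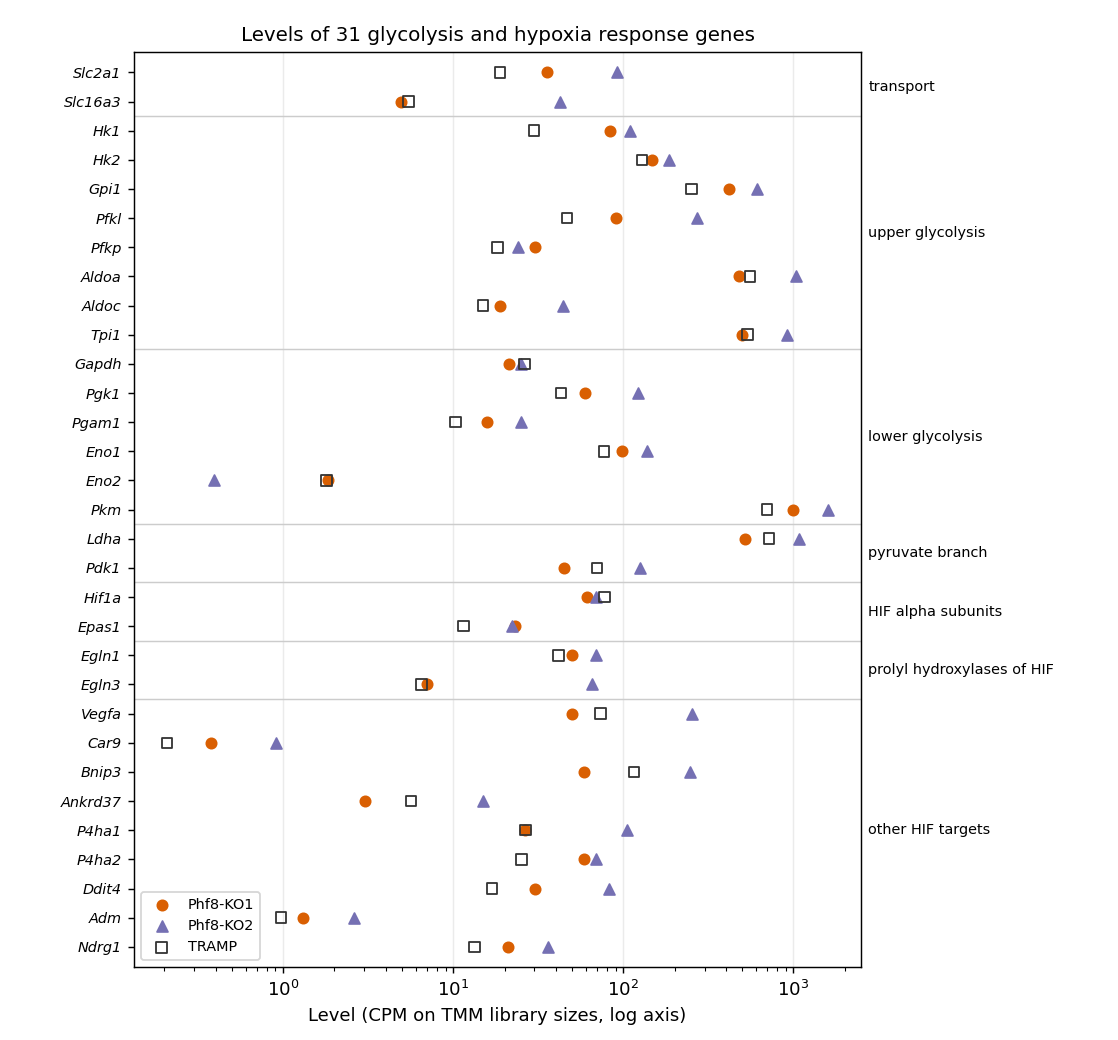
Level of each of the 31 genes in the Phf8-KO1 pool (circles), the Phf8-KO2 pool (triangles) and the TRAMP pool (open squares), in CPM on a log axis, grouped by role. Each point is 1 library of RNA from 3 mice. The triangles lie to the right of the other symbols for most genes, as for Egln3 with 65.1 CPM in Phf8-KO2 against 6.98 in Phf8-KO1 and 6.51 in TRAMP.

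With both Phf8-KO pools set against TRAMP, no member passed the test. The quasi-likelihood test of edgeR, Benjamini-Hochberg adjusted over 18216 genes, called 0 members higher and 0 lower. A call needed an adjusted p under 0.05 together with a fold change above 2 or below 0.5. It called 0% of all genes higher (0) and 0.0384% lower (7). The members' adjusted p ran between 0.10 for Hk1 and P4ha2 and 0.87 for Ldha. At an unadjusted p under 0.05, 4 members were higher (Hk1, Gpi1, Epas1 and P4ha2; 14.9% of all genes) and 0 were lower (12.2% of all). DESeq2, the tool named in the study's methods, called 5 members higher (Slc2a1, Hk1, Gpi1, P4ha2 and Ddit4; 9.42% of 16269 genes with an adjusted p) and 0 lower (4.59%). limma-voom called 0 in either direction. The fit has 1 residual degree of freedom, with error estimated between Phf8-KO1 and Phf8-KO2 and the variation of the lone TRAMP library taken to be the same. The median log2 fold change of the members was 0.99, against 0.01 for all tested genes, and it was 0.32 without Phf8-KO2 and 1.29 without Phf8-KO1.

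**Figure D2:**
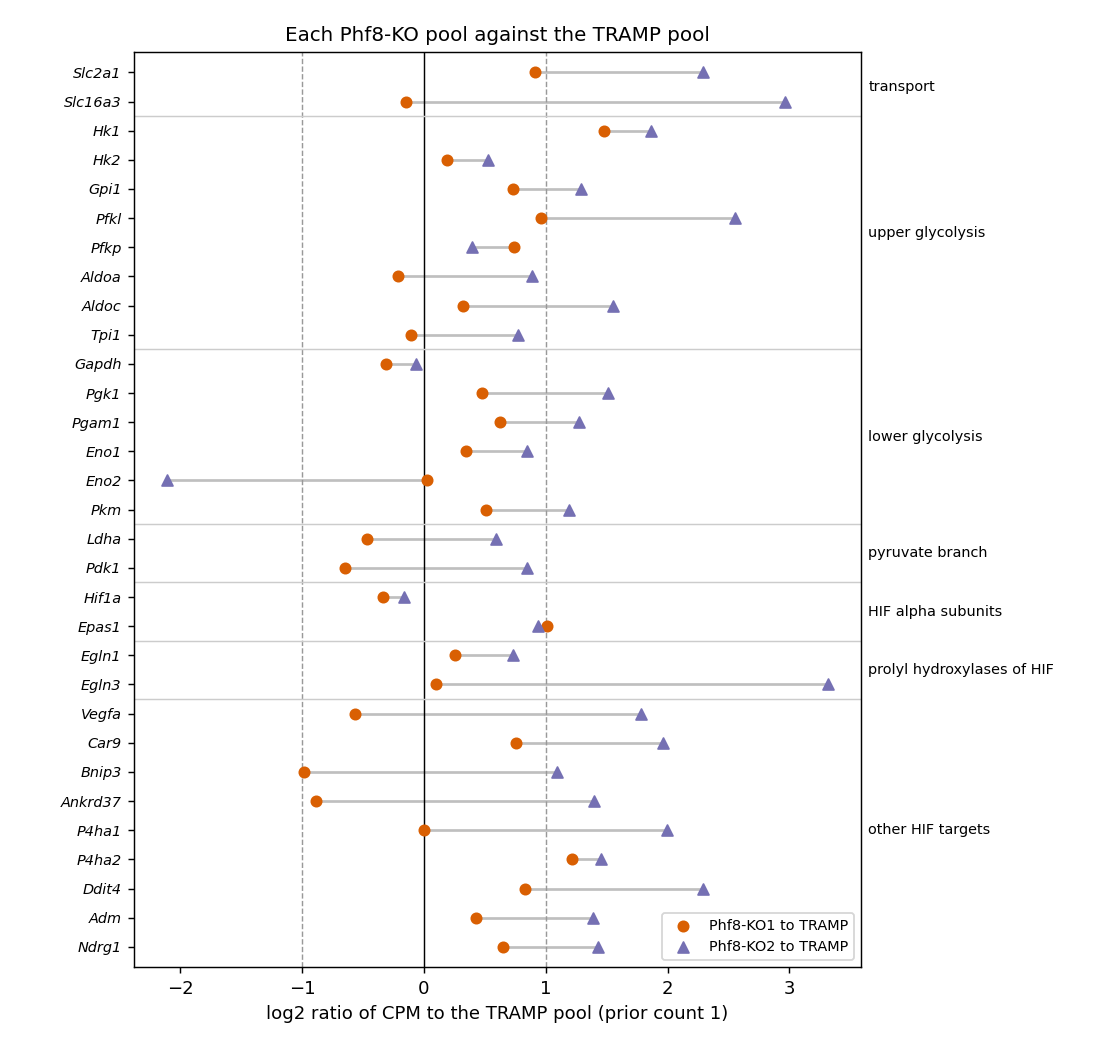
log2 ratio of each gene's CPM to the TRAMP pool in Phf8-KO1 (circles) and Phf8-KO2 (triangles), with a grey line joining the pools and dashed lines at a 2-fold difference. The grey lines are short for Hk1, P4ha2 and Epas1 and long for Egln3, Slc16a3 and Vegfa. For Bnip3 the circle lies at -0.99 and the triangle at 1.09, on opposite sides of TRAMP.

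The transporters at the ends of the pathway differed strongly between the pools. Slc2a1, which brings glucose into the cell, had 35.4 CPM in Phf8-KO1 and 92.1 in Phf8-KO2, against 18.8 CPM in TRAMP. It lay 1.88-fold above TRAMP in Phf8-KO1 (95% counting interval 1.69 to 2.10) and 4.90-fold above it in Phf8-KO2 (4.47 to 5.38). Both knockout pools were above the lone TRAMP library for 40.8% of all tested genes too. Intervals here and below cover counting error only. The log2 fold change over both pools was 1.76 with a standard error of 0.69 (adjusted p = 0.21 in edgeR's quasi-likelihood test, 0.025 in DESeq2). Slc16a3, the lactate exporter MCT4, had 4.92 CPM in Phf8-KO1 and 42.7 in Phf8-KO2, against 5.43 CPM in TRAMP. Phf8-KO1 and TRAMP did not differ beyond counting error for Slc16a3 (ratio 0.905, 0.712 to 1.15), and only Phf8-KO2 stood high, 8.68-fold above Phf8-KO1 (7.25 to 10.5).

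Upper glycolysis primes and splits the sugar, and 6 of its 8 genes lay above TRAMP in both knockout pools (40.8% of all tested genes). Among the 6 were the hexokinase gene Hk1 and the isomerase gene Gpi1. Hk1 had 83.0 CPM in Phf8-KO1 and 108.8 in Phf8-KO2, against 29.8 CPM in TRAMP. The Phf8-KO pools lay 1.31-fold apart, and each was more than 2-fold above TRAMP (log2 fold change 1.68, standard error 0.27, edgeR quasi-likelihood adjusted p = 0.10, DESeq2 adjusted p = 5.8e-05). Gpi1, which converts glucose 6-phosphate to fructose 6-phosphate, had 417.7, 612.6 and 250.8 CPM in Phf8-KO1, Phf8-KO2 and TRAMP. Its log2 fold change was 1.04 (standard error 0.35, edgeR quasi-likelihood adjusted p = 0.18, DESeq2 adjusted p = 0.026). Hk2, the hexokinase often induced in tumors, differed less, with 146.9 and 185.4 CPM in the knockout pools and 128.5 CPM in TRAMP. Pfkl and Pfkp encode liver-type and platelet-type phosphofructokinase, which commit the sugar to glycolysis. Pfkl had 90.8 CPM in Phf8-KO1 and 272.7 in Phf8-KO2, against 46.5 CPM in TRAMP. The pools lay 3.00-fold apart (2.87 to 3.14), and the log2 fold change of 1.97 had a standard error of 0.78 (edgeR quasi-likelihood adjusted p = 0.22). Pfkp ran the other way between the knockout pools, with 30.4 CPM in Phf8-KO1, 23.9 in Phf8-KO2 and 18.2 in TRAMP.

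The aldolase and triose phosphate isomerase steps were highest in Phf8-KO2. Aldoa, the widely expressed aldolase, had 479.9 CPM in Phf8-KO1 and 1029 in Phf8-KO2, against 556.9 CPM in TRAMP. Phf8-KO1 thus lay below TRAMP and Phf8-KO2 above it, 2.14-fold above Phf8-KO1 (2.10 to 2.19). Aldoc, the aldolase best known from brain, had 18.8, 44.1 and 15.0 CPM in Phf8-KO1, Phf8-KO2 and TRAMP. Tpi1, which interconverts the triose phosphates, had 497.9, 919.2 and 536.6 CPM in the same order. Aldoa, Tpi1 and other enzymes of the pathway are abundant in skeletal muscle, and the 14 muscle markers summed to 114.2 CPM in Phf8-KO1, 36.6 in Phf8-KO2 and 2266 in TRAMP. All 14 were lower in both knockout pools, where Myh2 had 0 counts. Their part in these differences was not tested.

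Lower glycolysis, where ATP is regained, showed the same order of pools for 4 of its 6 genes: Pgk1, Pgam1, Eno1 and Pkm were highest in Phf8-KO2 and lowest in TRAMP. Pgk1 had 59.8 CPM in Phf8-KO1 and 122.4 in Phf8-KO2, against 43.0 CPM in TRAMP, and lay 2.05-fold higher in Phf8-KO2 than in Phf8-KO1 (1.93 to 2.17). Pgam1, a phosphoglycerate mutase, had 15.8, 24.96 and 10.3 CPM in Phf8-KO1, Phf8-KO2 and TRAMP. Eno1, the ubiquitous enolase, had 97.5, 138.3 and 76.9 CPM. Pkm, the pyruvate kinase gene that gives the M1 and M2 isoforms, had 998.5, 1593 and 699.1 CPM in this order, and counts per gene do not separate the isoforms. Log2 fold changes of the 4 genes were between 0.62 and 1.09, with standard errors of 0.29 to 0.51 and edgeR quasi-likelihood adjusted p between 0.22 and 0.28.

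Gapdh and Eno2 stood apart from their neighbors in the pathway. Gapdh, the glyceraldehyde 3-phosphate dehydrogenase gene, had 21.1 CPM in Phf8-KO1 and 25.02 in Phf8-KO2, against 26.2 CPM in TRAMP. The order of Phf8-KO2 and TRAMP is not firm, as their ratio was 0.956 (0.865 to 1.06) and turned to a log2 ratio of 0.04 when library size alone was used for scaling. Gapdh has 71 near-identical copies in the GENCODE annotation, 67 of them pseudogenes, defined by at least 95% identity over at least 50% of its transcript. Their rows held 860, 1384 and 1018 counts in Phf8-KO1, Phf8-KO2 and TRAMP, more than the 563, 829 and 756 counts of the Gapdh row, so its value is uncertain. Pgk1, Eno1, Pkm and Ldha have 1 to 3 such copies. Eno2, the neuronal enolase used as a marker of neuroendocrine cells, had 1.84 CPM in Phf8-KO1, 0.392 in Phf8-KO2 and 1.80 in TRAMP, from 49, 13 and 52 counts. It was the 1 member more than 2-fold lower in Phf8-KO2 than in TRAMP, with a ratio of 0.218 (0.109 to 0.406). A sum of 8 neuroendocrine markers was 41.8 CPM in Phf8-KO1, 24.7 in Phf8-KO2 and 156.9 in TRAMP. Their part in the value of Eno2 was not tested.

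At the pyruvate branch, both genes lay below TRAMP in Phf8-KO1 and above it in Phf8-KO2. Ldha, the lactate dehydrogenase subunit that favors lactate, had 519.7 CPM in Phf8-KO1 and 1080 in Phf8-KO2, against 716.3 CPM in TRAMP. Pdk1, a kinase that switches off pyruvate dehydrogenase and a known HIF-1 target, had 44.7 CPM in Phf8-KO1 and 125.6 in Phf8-KO2, against 70.0 CPM in TRAMP. Phf8-KO1 was below TRAMP for both, at ratios of 0.726 (0.710 to 0.741) and 0.640 (0.595 to 0.687), and Phf8-KO2 above it, at 1.51 (1.48 to 1.53) and 1.80 (1.70 to 1.89). The edgeR quasi-likelihood adjusted p over both pools was 0.87 for Ldha and 0.81 for Pdk1.

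For the alpha subunit genes the knockout pools lay close to each other, Hif1a below TRAMP in both and Epas1 above it in both. Hif1a had 61.5 CPM in Phf8-KO1 and 69.3 in Phf8-KO2, against 77.7 CPM in TRAMP, a log2 fold change of -0.25 with a standard error of 0.19 (edgeR quasi-likelihood adjusted p = 0.44). Epas1, which encodes HIF-2 alpha and is strongly expressed in vessels, had 23.1 CPM in Phf8-KO1 and 22.0 in Phf8-KO2, against 11.5 CPM in TRAMP, a log2 fold change of 0.97 with a standard error of 0.24 (adjusted p = 0.13). Both knockout pools lay above TRAMP for Epas1, at 2.01-fold (1.76 to 2.31) and 1.92-fold (1.68 to 2.19). The 8 endothelial markers summed to 73.6 CPM in Phf8-KO1, 112.4 in Phf8-KO2 and 89.0 in TRAMP. Of them, 5 were above TRAMP in both knockout pools and 2 below it in both, and their part in the value of Epas1 was not tested.

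Of the prolyl hydroxylases that mark HIF alpha, Egln3 had the largest ratio between the knockout pools of any member, though its counting interval overlapped that of Slc16a3. Egln3, itself a HIF target that feeds back on the pathway, had 6.98 CPM in Phf8-KO1 and 65.1 in Phf8-KO2, against 6.51 CPM in TRAMP. Phf8-KO2 was 9.32-fold above Phf8-KO1 (8.02 to 10.9) and 10.0-fold above TRAMP (8.61 to 11.7), while Phf8-KO1 and TRAMP did not differ beyond counting error (1.07, 0.871 to 1.32). With such a spread, the log2 fold change of 2.47 had a standard error of 1.51 and an edgeR quasi-likelihood adjusted p of 0.36. Egln1, the main oxygen sensor of the pathway, had 49.7, 69.0 and 41.6 CPM in Phf8-KO1, Phf8-KO2 and TRAMP.

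The other HIF targets among the members were all more than 2-fold above TRAMP in Phf8-KO2 (9 of 9, against 17.1% of all tested genes). Their median log2 ratio to TRAMP was 0.43 for Phf8-KO1 and 1.45 for Phf8-KO2. Vegfa, the growth factor that calls in blood vessels, had 49.7 CPM in Phf8-KO1 and 252.8 in Phf8-KO2, against 73.5 CPM in TRAMP. Phf8-KO2 was 5.09-fold above Phf8-KO1 (4.80 to 5.40), and Phf8-KO1 below TRAMP (0.676, 0.630 to 0.724). Bnip3 had 58.4 CPM in Phf8-KO1 and 247.0 in Phf8-KO2, against 115.7 CPM in TRAMP. Ankrd37, an ankyrin repeat gene induced by HIF-1, had 3.04, 14.9 and 5.64 CPM in Phf8-KO1, Phf8-KO2 and TRAMP. Vegfa, Bnip3 and Ankrd37 therefore had the same order, with Phf8-KO1 lowest, TRAMP between and Phf8-KO2 highest. P4ha1, a catalytic subunit of the hydroxylase that stabilizes collagen helices, had 26.5 CPM in Phf8-KO1 and 105.7 in Phf8-KO2, against 26.5 CPM in TRAMP. Its Phf8-KO1 and TRAMP pools did not differ beyond counting error (interval of the ratio 0.903 to 1.11).

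P4ha2, Ddit4 and Ndrg1 lay above TRAMP in both knockout pools, and Adm and Car9 did so beyond counting error in Phf8-KO2 only. P4ha2, which encodes another catalytic subunit of collagen prolyl 4-hydroxylase, had 58.3 CPM in Phf8-KO1 and 68.7 in Phf8-KO2, against 25.1 CPM in TRAMP. The Phf8-KO pools lay 1.18-fold apart and the log2 fold change was 1.34 with a standard error of 0.22 (edgeR quasi-likelihood adjusted p = 0.10, DESeq2 adjusted p = 0.0014). Ddit4 had 30.0 CPM in Phf8-KO1 and 82.6 in Phf8-KO2, against 16.9 CPM in TRAMP, and its pools lay 2.75-fold apart (2.54 to 2.98). DESeq2 called it (adjusted p = 0.035), and edgeR's quasi-likelihood test did not (0.23). Ndrg1, a stress-response gene that is also androgen-responsive in prostate cells, had 20.9, 35.9 and 13.3 CPM in Phf8-KO1, Phf8-KO2 and TRAMP. Adm, the vasodilator peptide adrenomedullin, had 1.31, 2.60 and 0.969 CPM, from 35, 86 and 28 counts, and its ratio of Phf8-KO1 to TRAMP was 1.36 (0.801 to 2.31). Car9, the carbonic anhydrase used as a hypoxia marker, had 10, 30 and 6 counts in this order (0.375, 0.905 and 0.208 CPM). Its interval between Phf8-KO1 and TRAMP spans 0.595 to 6.05, so for either gene no difference between Phf8-KO1 and TRAMP was detectable at this depth.

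Set side by side, the knockout pools differed in 1 direction for nearly all members. Phf8-KO2 lay above Phf8-KO1 for 28 of 31 genes (49.3% of all tested genes), the exceptions being Pfkp, Eno2 and Epas1. By more than 2-fold it was higher for 15 (7.7% of all), and Phf8-KO1 was more than 2-fold higher for Eno2 only (12.1% of all). The median log2 ratio of Phf8-KO2 to Phf8-KO1 was 0.96, against -0.00076 for all genes, and was 0.78 for the 18 genes of glycolysis, transport and the pyruvate branch and 1.20 for the 13 genes of the HIF pathway and its targets. This is a difference between single pools of 3 mice with the same labeled genotype, and no replicate stands behind either. The pools also differed in tissue markers. All 10 smooth muscle markers were more than 2-fold higher in Phf8-KO1, with sums of 5543 CPM in Phf8-KO1, 450.8 in Phf8-KO2 and 733.7 in TRAMP. Markers of simple epithelium (7 genes) summed to 7609, 6953 and 5032 CPM in the same order, and 7 fibroblast markers to 1727, 720.1 and 1739 CPM. The fibroblast sum rests largely on Dcn, with 639.5, 214.5 and 1474 CPM. Of the 7 fibroblast markers, 4 lay above TRAMP in both knockout pools (40.8% of all tested genes) and 1 below it in both (42.8%). Msmb, a secretory gene of luminal cells, had 4326, 189.7 and 4805 CPM. Seminal vesicle markers were higher in Phf8-KO2 than in Phf8-KO1 for 6 of 6 genes, with sums of 1421 CPM in Phf8-KO1, 2052 in Phf8-KO2 and 114.3 in TRAMP. The part of these tissue differences in the members' values was not tested.

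**Figure D3:**
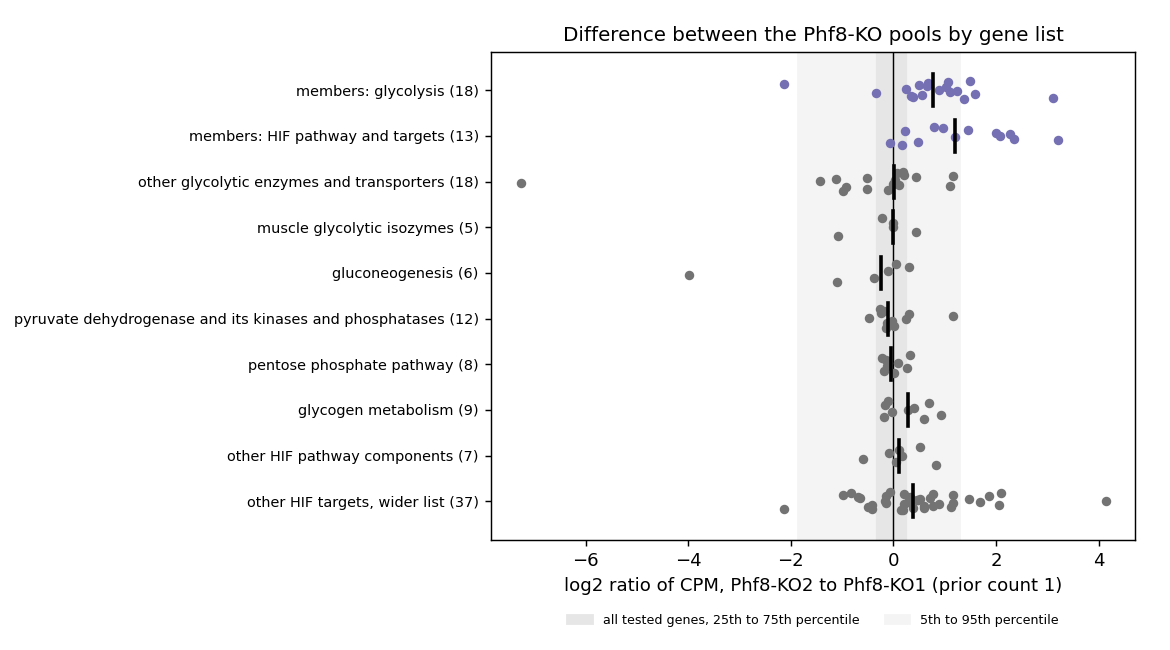
log2 ratio of Phf8-KO2 to Phf8-KO1 for single genes (points) in the members and in wider pathway lists, with black bars at list medians and grey bands for the percentiles of all tested genes. The number of genes plotted is in brackets. The members' bars stand at 0.78 and 1.20, and those of the other lists lie between -0.24 and 0.38.

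Pairs of related genes were compared as ratios of raw counts within a pool, which need no scaling between libraries. Such ratios are not per length, so only their change across pools can be read. Hk2 to Hk1 was 1.77 in Phf8-KO1 (95% interval 1.68 to 1.87) and 1.70 in Phf8-KO2 (1.64 to 1.78), against 4.31 in TRAMP, whose interval ended at 4.65. By counting error alone, the hexokinase ratio was alike in the knockout pools and lower there than in the lone TRAMP library. Skeletal muscle markers summed to 114.2, 36.6 and 2266 CPM in Phf8-KO1, Phf8-KO2 and TRAMP, and their part in this ratio was not tested. Epas1 to Hif1a was 0.376 and 0.317 in Phf8-KO1 and Phf8-KO2 and 0.148 in TRAMP. Aldoc to Aldoa was 0.0391 and 0.0429 in the knockout pools and 0.0269 in TRAMP.

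The other pairs differed between the knockout pools as well. Slc16a1 (the widely expressed transporter MCT1) to Slc16a3 was 1.07 in Phf8-KO1, 0.114 in Phf8-KO2 and 0.815 in TRAMP. Pfkp to Pfkl was 0.335, 0.0876 and 0.391 in the same order. Ldhb, the subunit that favors pyruvate, stood to Ldha at 0.0189 in Phf8-KO1, 0.00416 in Phf8-KO2 and 0.0414 in TRAMP, so that the balance lay most toward Ldha in Phf8-KO2. P4ha2 to P4ha1 was 2.20 in Phf8-KO1, 0.649 in Phf8-KO2 and 0.948 in TRAMP, highest in Phf8-KO1. For this pair and for Ldhb to Ldha, no counting intervals of the pools overlapped. Eno2 to Eno1 was 0.0189, 0.00284 and 0.0234, with the Eno1 count uncertain because of its near-identical copies.

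**Figure D4:**
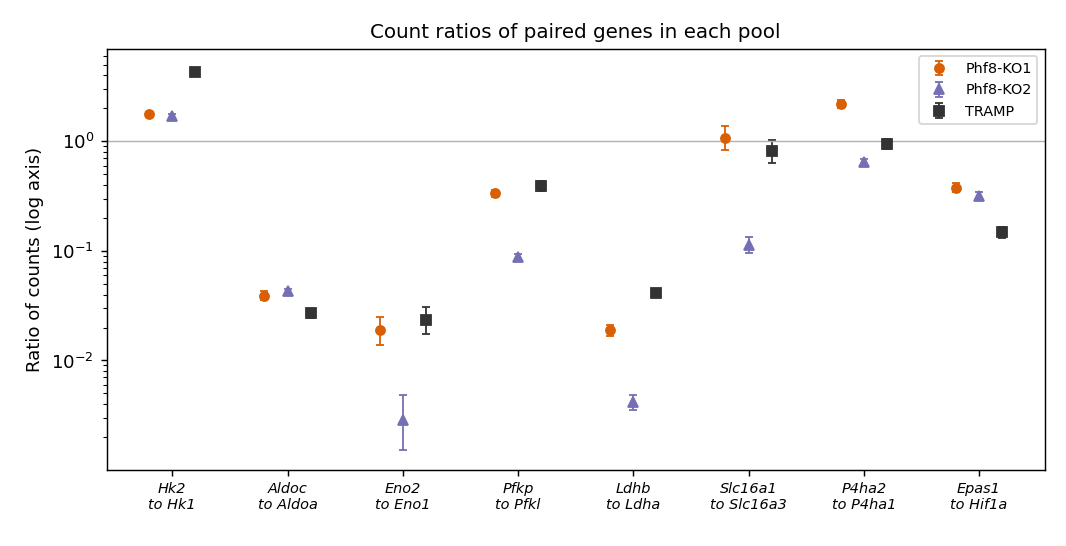
Ratio of raw counts of 8 pairs of related genes in Phf8-KO1 (circles), Phf8-KO2 (triangles) and TRAMP (squares), on a log axis, with 95% counting intervals as error bars. Hk2 to Hk1 lies at 1.77 and 1.70 in the knockout pools and 4.31 in TRAMP, while Slc16a1 to Slc16a3 and Pfkp to Pfkl are lowest in Phf8-KO2.

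The wider pathway lists, taken as background for the members, had a median log2 ratio to TRAMP of -0.13 for Phf8-KO1 and 0.14 for Phf8-KO2. Together they hold 109 further genes, of which 98 could be tested, and edgeR's quasi-likelihood test called 0 in either direction, DESeq2 9 higher and 7 lower (9.42% and 4.59% of all genes with an adjusted p). Unadjusted p was under 0.05 for 19 higher and 13 lower (14.9% and 12.2% of all genes). Their median log2 ratio of Phf8-KO2 to Phf8-KO1 was 0.04, and 11 of 98 were more than 2-fold higher in Phf8-KO2 (7.7% of all genes). Among other glycolytic enzymes and transporters (18 of 24 tested) the median log2 ratio to TRAMP was -0.14 for Phf8-KO1 and -0.11 for Phf8-KO2. Unadjusted p was under 0.05 for 3 of them, all lower than TRAMP. Ldhb had 9.80, 4.50 and 29.7 CPM in Phf8-KO1, Phf8-KO2 and TRAMP. The muscle phosphofructokinase gene Pfkm had 33.2, 33.1 and 55.5 CPM. Pfkfb1, a regulator of glycolytic flux in liver and muscle, had 5.82, 4.07 and 9.86 CPM.

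Muscle isozymes of glycolysis were mostly below TRAMP in the knockout pools, where skeletal muscle markers were low too, and the part of muscle tissue in this was not tested. Pgam2, the muscle phosphoglycerate mutase, had 1 count in Phf8-KO1 and 0 in Phf8-KO2, against 466 counts (16.1 CPM) in TRAMP. Phkg1, the muscle subunit of phosphorylase kinase, had 0 counts in both knockout pools and 108 in TRAMP. Among the tested muscle isozymes, 4 of 5 were below TRAMP in both knockout pools (42.8% of all genes), among them Phka1, another subunit of that kinase (18.9, 16.2 and 28.2 CPM in Phf8-KO1, Phf8-KO2 and TRAMP). The exception, Eno3, was not below TRAMP in Phf8-KO2 (1.24, 1.69 and 1.42 CPM).

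Another list held the pyruvate dehydrogenase complex, its kinases and phosphatases, and the mitochondrial pyruvate carrier. Of these genes, 10 of 12 lay below TRAMP in both knockout pools (42.8% of all genes), and Pdk2 and Dlat lay above it. Because the list holds both kinases and phosphatases of the complex, this count gives no direction for pyruvate use. Pdk2, a widely expressed pyruvate dehydrogenase kinase, had 85.9 CPM in Phf8-KO1 and 101.7 in Phf8-KO2, against 31.5 CPM in TRAMP. Dlat, the acetyltransferase subunit of the complex, had 42.7, 40.5 and 24.5 CPM in Phf8-KO1, Phf8-KO2 and TRAMP. The mitochondrial pyruvate carrier gene Mpc1 had 6.04, 5.28 and 15.9 CPM, and Dld, a shared subunit of the dehydrogenase, had 96.0, 87.9 and 160.5 CPM. In each of these 4 genes the knockout pools lay near each other.

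In the pentose phosphate pathway 5 of 8 genes lay above TRAMP in both knockout pools (40.8% of all genes). H6pd, which works in the endoplasmic reticulum, had 37.9, 47.1 and 15.5 CPM in Phf8-KO1, Phf8-KO2 and TRAMP, and the transketolase gene Tkt had 171.5, 155.3 and 90.4 CPM. Pgls, the lactonase, had 74.6, 65.3 and 45.3 CPM, and G6pdx, the rate-limiting dehydrogenase, had 99.9, 100.5 and 140.7 CPM. For glycogen, Ppp1r3c, a scaffold that promotes its synthesis, had 18.5, 17.1 and 43.1 CPM, the branching enzyme gene Gbe1 17.7, 15.7 and 27.7 CPM and the synthase gene Gys1 47.7, 72.4 and 28.6 CPM in this order. Of gluconeogenic genes, G6pc3, a ubiquitous glucose 6-phosphatase, had 55.2, 57.0 and 30.1 CPM, Pck2, the mitochondrial PEP carboxykinase, 92.1, 85.1 and 57.1 CPM, and Fbp2, the muscle fructose bisphosphatase, 1.61, 1.24 and 6.58 CPM.

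Of the 7 other HIF pathway components, 6 lay above TRAMP in both knockout pools (40.8% of all genes). Cited2, which competes with HIF alpha for its coactivators, had 102.5, 147.4 and 57.0 CPM in Phf8-KO1, Phf8-KO2 and TRAMP. Hif1an, the asparagine hydroxylase that blocks HIF activity, had 46.7, 50.2 and 36.6 CPM, Hif3a 1.61, 2.90 and 0.900 CPM, and Arnt2 2.25, 1.48 and 0.831 CPM.

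In a wider list of HIF targets (37 of 39 tested), 13 of the 37 were more than 2-fold above TRAMP in Phf8-KO2 (17.1% of all genes). The list had a median log2 ratio of Phf8-KO2 to Phf8-KO1 of 0.38. By more than 2-fold, 9 of the 37 were higher in Phf8-KO2 than in Phf8-KO1 (7.7% of all genes). The edgeR quasi-likelihood test called 0 of them, unadjusted p was under 0.05 for 10 higher and 1 lower (14.9% and 12.2% of all genes), and DESeq2 called 6 higher and 0 lower (9.42% and 4.59%). Lox, which cross-links collagen, had 54.8 CPM in Phf8-KO1 and 60.6 in Phf8-KO2, against 11.4 CPM in TRAMP. Plaur, the urokinase receptor, had 16.7, 16.0 and 4.43 CPM in Phf8-KO1, Phf8-KO2 and TRAMP. Mif, a cytokine, had 92.4, 132.1 and 42.3 CPM, and Bhlhe40, a transcriptional repressor, 33.4, 72.4 and 9.48 CPM. These 4 have the smallest p of the list and lay above TRAMP in both knockout pools. Chosen after their values were seen, Ak4, a mitochondrial adenylate kinase (2.14, 38.2 and 2.91 CPM), and Igfbp3, an IGF-binding protein (21.1, 90.5 and 25.9 CPM), had the pattern of Egln3, with only Phf8-KO2 high. Ero1l, an oxidase of the endoplasmic reticulum (21.8, 91.03 and 74.7 CPM), and Plod2, a collagen lysyl hydroxylase (20.4, 74.3 and 67.4 CPM), were also chosen in this way, and there Phf8-KO1 was the low pool.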

How the data were processed

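Tumor RNA was sequenced as 3 libraries, each pooled from 3 mice. Per the labels and the study's methods, filtered reads were mapped with HISAT2 to GRCm38 and assigned to genes with HTSeq by the authors, who deposited raw counts. The tool versions, annotation release, strand setting and treatment of multi-mapped reads are not given in the sources used here, so reads of the near-identical copies of 5 members, and of the genes that overlap 16 members, cannot be told apart.

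The counts were tested in R 4.3.3 using edgeR 4.0.16 (TMM, filterByExpr by group, quasi-likelihood test at its default setting, Benjamini-Hochberg adjustment over 18216 genes), limma 3.58.1 and DESeq2 1.42.0. A call needed an adjusted p under 0.05 together with a fold change above 2 or below 0.5. Standard errors are the absolute log2 fold change over the square root of F. The log2 ratios between pools use a prior count of 1, and a floor of 3 counts equals 0.113, 0.0905 and 0.104 CPM in Phf8-KO1, Phf8-KO2 and TRAMP. TMM factors were 0.997, 1.04 and 0.965 in this order. Intervals are exact at 95% and cover counting error only. The code was tested on simulated counts.

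The members and all lists were chosen with earlier results of these data known. All members are named. Those more than 2-fold from TRAMP in the same direction in both Phf8-KO pools, or more than 2-fold apart between those pools, were to be given in full, and up to 4 genes of each wider list by smallest p. Not every gene under this rule is reported here. Settings tried besides were scaling by RLE, upper quartile or library size, no filter, a minimum mean CPM of 1, limma-voom, DESeq2, the other legacy setting of edgeR, no fold threshold, other prior counts and leaving out each Phf8-KO pool. Chosen after seeing the data were the other scalings of the Phf8-KO2 to Phf8-KO1 median, and adding the reads of near-identical copies. RefSeq (GRCm38.p6) gave promoters and positions, and GENCODE M21 the copies and overlaps.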

Additional observations from a re-analysis of the deposited data

How the results depend on the processing

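No member was called lower under any alternative run. Members called higher numbered 0 under RLE, upper quartile and library size scaling, a mean CPM of at least 1, limma-voom, the other legacy setting and no fold threshold, 5 with DESeq2 and 5 without a filter on low counts, where 5.55% of 25757 genes were called higher. Slc2a1, Hk1, P4ha2 and Ddit4 were in both sets of 5. DESeq2 gave adjusted p of 0.025, 5.8e-05, 0.0014 and 0.035 for them. The cause was not tested.

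The median log2 fold change of the members lay between 0.83 and 1.07 under other scalings, filters and tools, and between 0.32 and 1.29 when a Phf8-KO pool was left out. Without Phf8-KO replicate 2 the log2 fold change turned round for 8 of the 18 genes given in full, and without Phf8-KO replicate 1 for none. A gap of more than 2-fold between the knockout pools was part of the rule that picked these 18. Phf8-KO2 was the higher pool by that margin for 15 of them and Phf8-KO1 for 1. The 8 and none thus follow in part from the rule and are no check of the result. The values without replicate 2 and without replicate 1 were -0.14 and 2.97 for Slc16a3, -0.21 and 0.89 for Aldoa, 0.031 and -2.11 for Eno2, -0.46 and 0.59 for Ldha, -0.64 and 0.84 for Pdk1, -0.57 and 1.78 for Vegfa, -0.99 and 1.09 for Bnip3, and -0.88 and 1.40 for Ankrd37.

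Upper quartile scaling moved the median of all genes by -0.15. Relative to TRAMP, P4ha1 in Phf8-KO1 turned to -0.12 under it and to -0.01 under RLE scaling, Egln3 in Phf8-KO1 to -0.02 and Eno2 in Phf8-KO1 to -0.09 under it. With library size alone, 1 member was lower in both knockout pools, since Gapdh in Phf8-KO2 turned to 0.04, and with upper quartile scaling 3 were. With the reads of its copies added, Gapdh in Phf8-KO2 was at 0.12. Under the 4 scalings Phf8-KO2 exceeded Phf8-KO1 for 28 of 31 members each time, and by more than 2-fold for 14 to 16. No paired analysis was possible, since 1 TRAMP library stands against 2 Phf8-KO libraries and no label links them. With 1 TRAMP pool, no call has a replicate check on the control side.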

Other observations

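Values that enter no comparison above concern genes near or within the members. Fbp1, the gluconeogenic bisphosphatase, chosen after its values were seen, had 87.9 CPM in Phf8-KO1, 41.0 in Phf8-KO2 and 29.4 in TRAMP. Hk1os, annotated on the strand opposite Hk1, had 181, 217 and 190 counts in Phf8-KO1, Phf8-KO2 and TRAMP, against 2211, 3605 and 862 counts for Hk1, and without a stated strand setting reads of the overlap cannot be assigned to either gene. Spsb2, opposite Tpi1, had 346, 431 and 168 counts. Adipocyte markers (9 genes) summed to 42.9 CPM in Phf8-KO1, 80.9 in Phf8-KO2 and 723.9 in TRAMP. Proliferation markers (7 genes) summed to 1423, 1313 and 906 CPM, erythroid markers to 98.4, 68.0 and 393.9 CPM, and leukocyte markers to 58.5, 27.3 and 131.6 CPM in this order. Their part in the members' values was not tested.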
